A study of Mus musculus with 6 samples.

Results

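The miR-130/miR-301 and miR-148/miR-152 families were described in the miRNA-Seq of embryonic mouse cardiomyocytes (EMCMs) by the levels of their mature miRNAs. The members were taken by name, as every miRNA named miR-130, miR-301, miR-148 or miR-152, with any letter, arm or asterisk. These names were chosen with earlier results of these data known. In all, 14 of the 689 mature miRNAs in the table were members: 8 of miR-130/miR-301 and 6 of miR-148/miR-152. They come from 7 hairpins, with both arms of each hairpin in the table.

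The EMCMs were wild-type cells from E16.5 hearts, grown on flexible plates coated with collagen. Over 24 hours, 3 cultures were left static and 3 were stretched cyclically, by 16% and at a frequency of 1 Hz. The labels name Swiss Webster mice, whereas the study's methods name CD1 mice and a larger number of cultures. The series was designed to ask which miRNAs respond to stretch. The level used here is the authors' mean abundance, with 1 value per miRNA and no sample named. It was read as a mean over both groups, and which cultures entered it is not stated. It therefore does not separate stretched from static cultures, and stretch was not tested. No value of a single sample was analysed, the sequencing depths are not known, and levels carry neither an SD nor an interval or test. Neighbors in an order of levels can therefore not be told apart statistically.

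A miRNA hairpin is cut into a duplex of a 5p and a 3p arm, and as a rule one arm is kept in an Argonaute protein while the other is degraded. The kept arm finds its target mRNAs mainly through its seed, the bases 2 to 8 from its 5′ end, and miRNAs with the same seed are grouped as a family because they can recognize the same sites. In the older naming used in the table, the asterisk marks the arm thought to be the minor one when it was named. The miR-130/miR-301 family is known from vascular biology and from targets such as Zfpm2 and Pparg, and the miR-148/miR-152 family is known for targeting the DNA methyltransferase Dnmt1.

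The unstarred arms are shown first, because their first 8 bases carry the relation between the families. Sequences were taken from the RefSeq miRNA table of GRCm38.p6, which held 13 of the 14 members. miR-301b is named only. The capitals mark the seed, bases 2 to 8.
miR-130a: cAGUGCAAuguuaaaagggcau
miR-130b: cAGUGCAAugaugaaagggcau
miR-301a: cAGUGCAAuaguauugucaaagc
miR-148a: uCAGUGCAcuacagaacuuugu
miR-148b: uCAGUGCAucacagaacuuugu
miR-152: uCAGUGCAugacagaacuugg

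The arm of an unstarred name was taken as the one whose seed most hairpins of its family share, and for each of these 6 it was the 3p arm. By that choice the seed AGUGCAA was shared by miR-130a, miR-130b and miR-301a, and the seed CAGUGCA by miR-148a, miR-148b and miR-152. Both seeds overlap in sequence: the letters of the miR-148/miR-152 seed also stand in all 3 miR-130/miR-301 arms, but at bases 1 to 7 in place of bases 2 to 8. The seeds share the 6 letters AGUGCA, which begin at base 2 in miR-130/miR-301 and at base 3 in miR-148/miR-152. A perfectly paired site reads UUGCACU for miR-130/miR-301 and UGCACUG for miR-148/miR-152. Every miR-130/miR-301 sequence shown begins with C and every miR-148/miR-152 sequence with U. In the RefSeq table, 4 further mouse miRNAs carry the seed AGUGCAA, namely miR-130c, miR-721, miR-6341 and miR-6389, and 0 further miRNAs carry CAGUGCA. Those 4 have no level under these names in the data.

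Beyond the seed, the closest paralogs within a family differ at few positions, counted from 1 at the 5′ end, whereas miR-130a and miR-301a differ at many. miR-148a and miR-148b were identical at 20 of 22 positions, with the substitutions C9U and U10C. miR-148b and miR-152 were identical at 19 of the 21 positions they share, with C10G and U20G. miR-130a and miR-130b were identical at 20 of 22 positions, with U11A and A13G. miR-301a stood further away, with 12 of 22 positions identical to miR-130a. The closest pair was miR-301a and miR-301b, as a stretch of the Mir301b hairpin was identical to miR-301a at 22 of 23 positions and differed at position 10 alone. How the authors counted tags with mismatches is not stated, so reads of such close paralogs may be assigned to either and the lower of 2 paralog levels is the less certain. This holds most for miR-301b beside miR-301a.

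The 7 hairpins lie in 6 places of the genome. In GRCm38.p6, Mir148a lies on chromosome 6 from 51269812 to 51269910 and Mir130a on chromosome 2 from 84741115 to 84741178, both on the minus strand and outside other genes of the GENCODE M21 annotation. Mir301, the hairpin of miR-301a, lies on the plus strand of chromosome 11 from 87113004 to 87113089, within an intron of Ska2, which encodes a protein of the spindle and kinetochore. Mir152 lies on the same chromosome and strand from 96850393 to 96850465, within an intron of Copz2, and Mir148b on the plus strand of chromosome 15 from 103285125 to 103285221, within an intron of Copz1. Copz1 and Copz2 encode paralogous subunits of the COPI vesicle coat, so miR-148b and miR-152 are paralogs in paralogous hosts. Mir130b and Mir301b lie side by side on chromosome 16 on the minus strand, from 17124061 to 17124142 and from 17124400 to 17124496, in introns of 2610318N02Rik.

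Mean abundance is the log2 of a miRNA's share of the miRNA reads, and 2 to the power of the values summed to 0.995 over the table. A read covers a whole mature miRNA and the members are 21 to 24 bases long, so levels were compared without a correction for length. The 14 members together held 2.70% of the miRNA reads. Of these reads, 90.1% belonged to miR-148a and miR-301a alone.

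miR-148a was the most abundant member, with a log2 mean abundance of -5.57, which is 2.10% of the miRNA reads. It was the 9th most abundant of the 689 miRNAs, between miR-21 at 2.71% and miR-351 at 2.04%. For scale, the most abundant miRNA, miR-22, held 20.5%. The other miR-148/miR-152 members were far below miR-148a. miR-148b had a log2 mean abundance of -10.83, or 0.0548% of the reads, and miR-152 had -12.42, or 0.0182%. The level of miR-148a was thus 38.4-fold that of miR-148b, which differs from it at 2 bases, and 116-fold that of miR-152. Within the unstarred arms of miR-148/miR-152, miR-148a held 96.6% of the reads, miR-148b 2.52% and miR-152 0.835%.

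In the miR-130/miR-301 family, miR-301a led with a log2 mean abundance of -8.23, or 0.332% of the miRNA reads, and stood 30th in the order of all miRNAs. Its neighbors in that order were let-7c at 0.381% and miR-27a at 0.327%. miR-130a followed at -10.65, or 0.0621% of the reads. The pair from chromosome 16 came last, with miR-301b at -12.29, or 0.0200%, and miR-130b at -12.69, or 0.0151%. The level of miR-301a was 5.35-fold that of miR-130a, 16.6-fold that of its paralog miR-301b and 22.0-fold that of miR-130b. Within the unstarred arms of miR-130/miR-301, miR-301a held 77.4%, miR-130a 14.5%, miR-301b 4.65% and miR-130b 3.52%. The reads were therefore spread over more members than in miR-148/miR-152, although 1 hairpin led in both families.

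**Figure D1:**
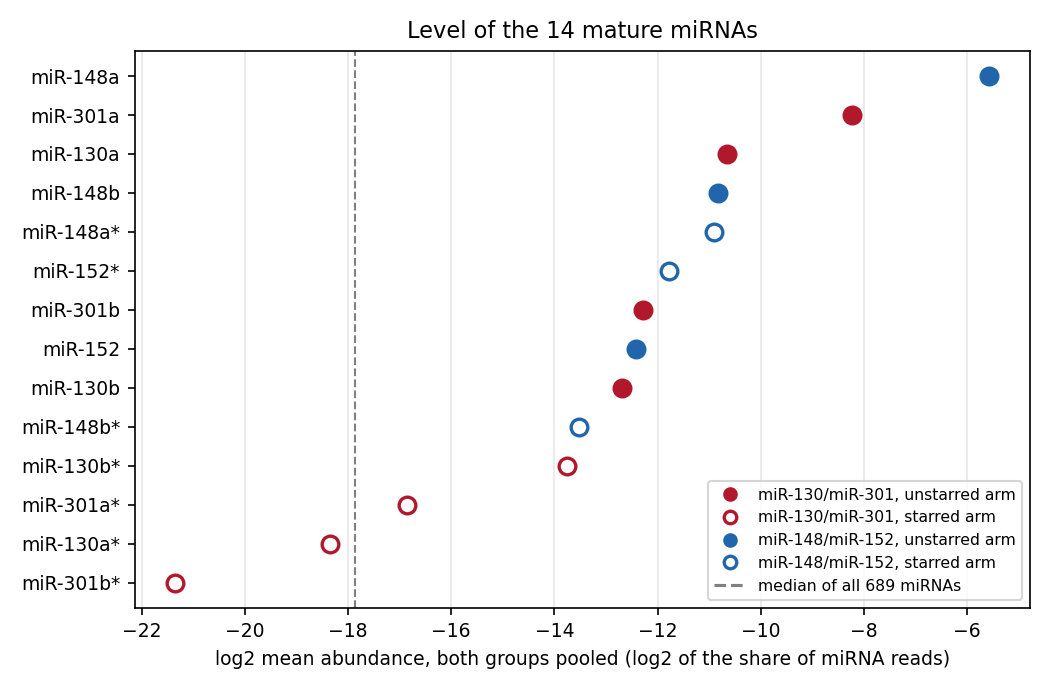
Log2 mean abundance (x axis, log2 of the share of miRNA reads, both groups pooled, 1 value per miRNA and no error bars) of the 14 members, with filled points for unstarred and open points for starred arms. miR-148a at -5.57 and miR-301a at -8.23 stand to the right of all others, and only miR-130a* and miR-301b* lie left of the dashed line, the median of all 689 miRNAs at -17.86.

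As families, the 3 unstarred arms with the seed of miR-148/miR-152 held 2.18% of the miRNA reads and the 4 unstarred arms of miR-130/miR-301 held 0.429%. The level of miR-148/miR-152 was 5.07-fold that of miR-130/miR-301. This order came from the leading members: miR-148a alone was 6.33-fold miR-301a. With both leaders set aside, the order of the sums turned, with 0.0972% of the reads in miR-130a, miR-130b and miR-301b against 0.0730% in miR-148b and miR-152, a ratio of 1.33. The miR-130/miR-301 sum covers more arms, so the ratio does not compare levels per arm. It also includes miR-301b at 0.0200%, some reads of which may belong to miR-301a. In single members the families interleaved below the leaders, as miR-130a at -10.65 stood next to miR-148b at -10.83, and miR-152 at -12.42 stood between miR-301b at -12.29 and miR-130b at -12.69.

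**Figure D2:**
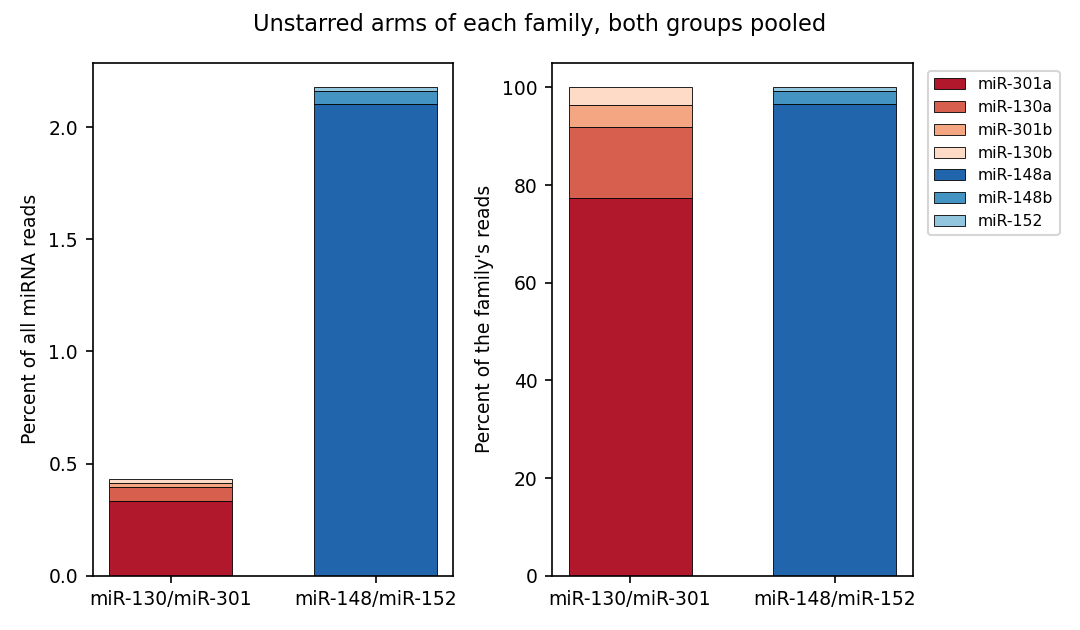
Unstarred arms of each family stacked by member, as a percent of all miRNA reads (left) and as a percent of the family's reads (right), both groups pooled, with no error bars. The miR-148/miR-152 bar reaches 2.18% and is 96.6% miR-148a, while the miR-130/miR-301 bar reaches 0.429% and is 77.4% miR-301a.

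Against the whole table, all 7 unstarred arms and 5 of the 7 starred arms stood above the median of the 689 miRNAs, a log2 mean abundance of -17.86 or 0.000420% of the reads. Of the 689 miRNAs, 211 are starred. The shares above the median among other unstarred and other starred miRNAs were not counted, so these counts are not a trait of the families. The lowest unstarred arm, miR-130b, was the 132nd most abundant miRNA, and 80.8% of the miRNAs were below it. The starred arms ranged more widely, from the 84th place of miR-148a* to the 519th of miR-301b*, below which 24.7% of the miRNAs stood.

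**Figure D3:**
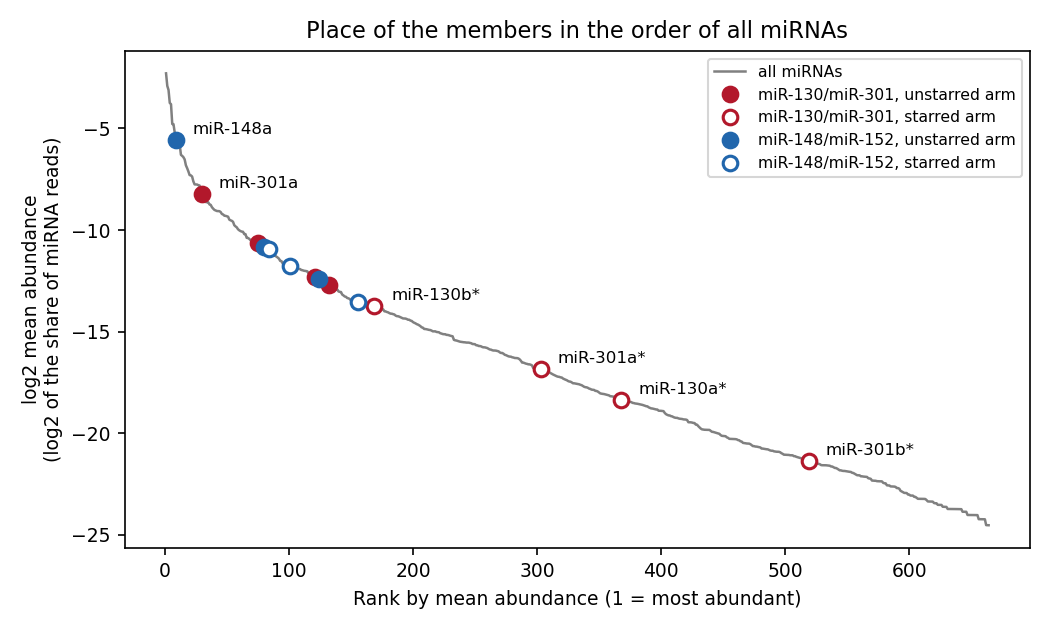
Log2 mean abundance (y axis, log2 of the share of miRNA reads, both groups pooled) against rank (x axis) for all miRNAs as a grey line, without the 25 miRNAs that lie at or under -35.64, and for the members as points, filled for unstarred and open for starred arms. miR-148a stands 9th and miR-301a 30th, and the starred arms of miR-130/miR-301 run from the 169th place of miR-130b* to the 519th of miR-301b*.

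The starred arms are shown next, because their levels are compared with those of the unstarred arms. The starred name was given to the arm without the seed of the family, which was the 5p arm for all 7. For miR-301b it was the only arm in RefSeq. The capitals again mark bases 2 to 8.
miR-130a*: gCUCUUUUcacauugugcuacu
miR-130b*: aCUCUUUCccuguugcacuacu
miR-301a*: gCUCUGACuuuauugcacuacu
miR-301b*: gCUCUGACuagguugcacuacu
miR-148a*: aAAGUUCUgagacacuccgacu
miR-148b*: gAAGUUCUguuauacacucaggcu
miR-152*: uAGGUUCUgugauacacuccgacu

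The seeds of the unstarred arms were set by the way the arms were assigned, so they are not set against those of the starred arms. The 7 starred arms held 5 seeds. miR-301a* and miR-301b* shared CUCUGAC, miR-148a* and miR-148b* shared AAGUUCU, and miR-130a*, miR-130b* and miR-152* each had a seed of its own. Of the starred arms, 1 begins with U, that of miR-152. Of these seeds, AAGUUCU held 0.0604% of the miRNA reads, the miR-152* seed AGGUUCU 0.0284%, the miR-130b* seed CUCUUUC 0.00728% and CUCUGAC 0.000882%.

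In the miR-148/miR-152 family, the starred arms were abundant. miR-148a* had a log2 mean abundance of -10.91, or 0.0519% of the reads, close to the unstarred miR-148b at -10.83. miR-152* was at -11.78, or 0.0284%, and miR-148b* at -13.52, or 0.00851%. In the miR-130/miR-301 family, miR-130b* led at -13.75, or 0.00728% of the reads. miR-301a* was at -16.85, or 0.000845%, and miR-130a* at -18.35, or 0.000299%. miR-301b* was at -21.35, which is 3.74e-05% of the reads, the lowest of the members, and the number of reads behind it is not known. Summed over the starred arms, miR-148/miR-152 held 0.0888% and miR-130/miR-301 0.00846% of the reads, a ratio of 10.5.

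The arm difference, the log2 mean abundance of the unstarred minus the starred arm, ran from -0.64 to 9.06 over the 7 hairpins. It was -0.64 for miR-152, 2.69 for miR-148b and 5.34 for miR-148a. In the miR-130/miR-301 family it was 1.05 for miR-130b, 7.70 for miR-130a, 8.62 for miR-301a and 9.06 for miR-301b. The median was 2.69 in miR-148/miR-152 and 8.16 in miR-130/miR-301, and the ranges of the families overlapped through miR-130b. The other 198 pairs of an unstarred and a starred miRNA in the table had a median of 5.82, with the middle 50% of them from 2.66 to 9.31. The 7 hairpins had a median of 5.34, and 5 of them, all but miR-152 and miR-130b, lay within that middle range. The other pairs include some with an arm at or under -35.64, too low to be read as a share. They also include unstarred names without a copy number set against a numbered starred copy, as let-7a against let-7a-1* and let-7a-2*. Such pairs are not the arms of a single hairpin. They were not left out in any setting, and no member pair is of this kind. The number within fell to 3 of 7 when pairs named -5p and -3p were added. In these added pairs the lower arm was subtracted from the higher one, so their differences cannot be negative. That setting thus mixes unlike measures. The number fell to 2 of 6, miR-148a and miR-148b, in pairs with both arms at a log2 mean abundance of -20 or above.

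miR-152 was the hairpin in which the starred arm was the more abundant one. miR-152* held 0.0284% of the miRNA reads against 0.0182% for miR-152, a 1.56-fold higher level, so that 61.0% of the reads of the hairpin came from the arm with the asterisk. The starred arm was also the higher one in 15 of the other 198 pairs, or 7.58%, and 9 of the 198 had a lower arm difference than miR-152. The hairpin is printed from RefSeq because both arms contribute, with the 5p and 3p arms in capitals.
Mir152: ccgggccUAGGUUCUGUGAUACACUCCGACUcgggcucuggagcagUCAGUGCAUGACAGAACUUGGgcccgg

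In the hairpin of miR-130b, the unstarred arm was 2.08-fold the starred arm, and 32.5% of the reads came from miR-130b*. Among the other pairs, 12.1% had a lower arm difference. At the other end, the unstarred arm held 99.5% of the reads of the miR-130a hairpin, 99.7% of that of miR-301a and 99.8% of that of miR-301b. The hairpin of miR-148a lay near the middle, with 97.6% of its reads in the unstarred arm and 47.5% of the other pairs lower. As miR-148a is so abundant, the remaining 2.40% of its reads placed miR-148a* among the 84 highest miRNAs. For miR-148b, 13.4% of the reads came from the starred arm.

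**Figure D4:**
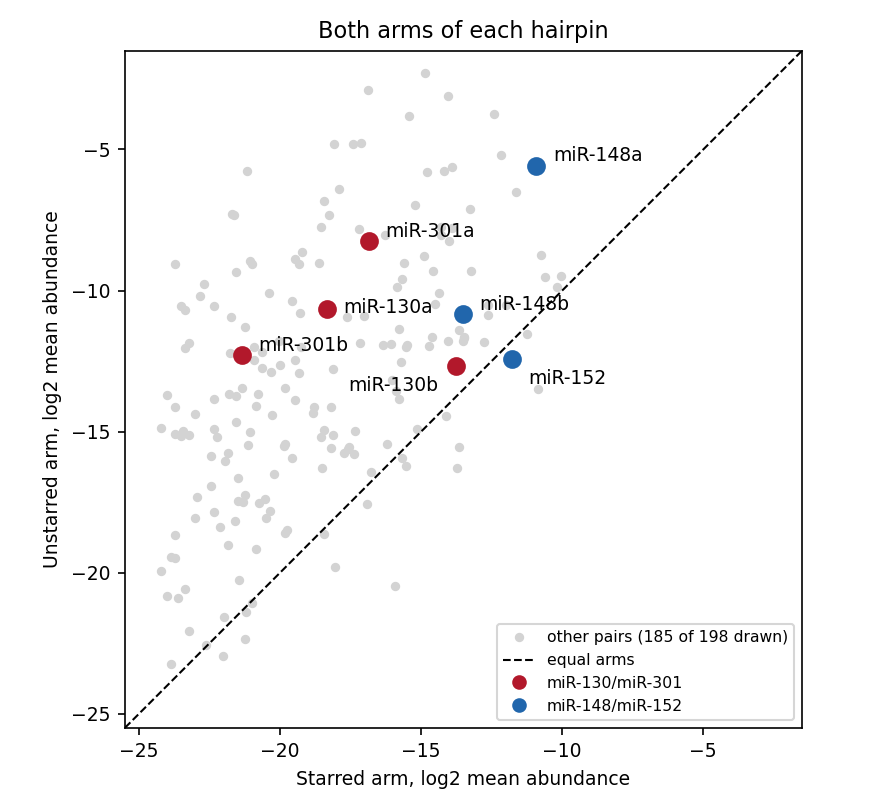
Log2 mean abundance of the unstarred arm (y axis) against the starred arm (x axis), both groups pooled, for the 7 member hairpins (colored) and 185 of the 198 other pairs (grey; 13 with an arm at or under -35.64 are not drawn). miR-152 lies below the dashed line of equal arms with an arm difference of -0.64, miR-130b lies just above it at 1.05, and miR-301b lies farthest from it among the members at 9.06.

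The neighboring hairpins of miR-130b and miR-301b, with 257 bases between them on one strand, had unstarred arms at nearly the same level and starred arms far apart. The unstarred arms differed by 0.40 on the log2 scale, with miR-301b the higher. The level of miR-301b stood 16.6-fold under that of miR-301a, from which it differs at 1 position, and the share of its reads that belong to miR-301a was not tested, which also bears on its arm difference. In 50 other pairs of adjacent hairpins at most 10 kb apart on one strand, each with a single locus and an unstarred name in the table, the median difference was 2.28, and 4 of the 50 pairs differed by less than miR-130b and miR-301b. Most of the 50, and most of the 4, lie in one region of chromosome 12, from miR-493 to miR-3072. The comparison thus describes largely that region. Hairpins with several loci or other names were left out first, so some may lie between the hairpins of a pair. The starred arms differed by 7.61, or 195-fold, with miR-130b* the higher. The starred arms of miR-301a and miR-301b, identical at 19 of 22 positions, held 0.254% and 0.187% of the reads of their hairpins. In the miR-130a hairpin, whose starred arm has another seed, that share was 0.479%. A low starred share was thus not particular to miR-301a and miR-301b. The value of miR-301b also carries the limit given above for its unstarred reads, and its starred arm was the lowest member.

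The labelled cell type was checked against miRNAs known to mark cell types. Of the 6 cardiomyocyte names listed, 5 matched the table by name and summed to 1.46% of the miRNA reads, led by miR-208b, which lies in a cardiac myosin gene, at 1.17%. The name left over was miR-1, which the table gives as miR-1a, looked up after the values had been seen, at 0.0395%. The 5 smooth muscle and fibroblast miRNAs summed to 13.8%, led by miR-143 at 13.3%, and the 2 endothelial strands of miR-126 to 0.477%. The white blood cell, epithelial and red blood cell miRNAs were near 0, at 0.00809%, 0.00353% and 0.000132%. The smooth muscle and fibroblast sum was thus higher than the cardiomyocyte sum, and each came mostly from its leading miRNA. The lists therefore do not settle how pure the labelled cell type was. Which cells the members came from was not tested, and in such bulk samples more cells of a type and more RNA per cell cannot be told apart.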

How the data were processed

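RNA was extracted from 3 static and 3 stretched EMCM cultures, and small RNA libraries were made with adapters ligated to each end and sequenced. The authors trimmed and filtered the reads, kept short tags, mapped them with Bowtie2 to mouse, counted hits per gene ID with in-house scripts and used edgeR. The submitters' processing notes also name DESeq. The build, versions, normalization and any filter on low counts are not given in the sources used here. No correction for ligation or amplification is stated, so levels compare reads, not molecules.

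One table was used. The authors deposited its mean abundance per miRNA as log2 values, since raising 2 to them gives a sum of 0.995, whereas raising 10 gives 0.00756 and raising e gives 0.302. It was read as the authors' value over both groups. Which samples entered it, and whether the mean was taken before or after the logarithm, is not given. The remaining 4 columns, a fold change in log2 and in signed form with its P value and FDR, hold the authors' own comparison of stretched with static cultures and were not used. No test was run, since no value per sample was used, and the depth is unknown.

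From the levels, percent of reads, ranks and differences between arms were computed. Starred names were paired with unstarred names, ignoring copy numbers, which gave 205 of 211 starred miRNAs a partner. The arm of an unstarred name was taken as the one whose seed most hairpins of its family share, and any other arm as the starred one. The percents, ranks, member names and arm pairs were tested on simulated data, and the steps on sequences, positions and adjacent hairpins were not. Positions came from RefSeq and GENCODE M21, both of GRCm38. All members were named, together with the neighbors of each leading member in the order of levels, the most abundant miRNA, miRNAs with the same seeds and the marker lists; the adjacent hairpins were compared after the levels had been seen. The members and lists were chosen with earlier results of these data known. Python 3.11.15, numpy 2.4.6, pandas 2.3.3 and matplotlib 3.10.9 were used.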

Additional observations from a re-analysis of the deposited data

How the results depend on the processing

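The alternatives were other denominators, both arms in place of the unstarred arm, members by seed, other sets of arm pairs and other sets of ranked miRNAs. Of 70 alternative values, 26 could not change by construction, namely the arm differences and the ranks after low miRNAs were left out. Of the remaining 44, 28 were the same to 3 digits or, for ranks, counts and shares of pairs, within 1.5 times, and 16 moved. Many of the 28 could hardly fail. Counting identical miRNAs once left 673 of 689 miRNAs, and ranks shifted by 8 places at most. The miR-148/miR-152 share by seed is among the 28 but is summed over the same 3 miRNAs, so it could not change either. The number 28 therefore says little about stability. The share of the unstarred miR-130/miR-301 arms, 0.429%, became 0.431% with the sum of the table as denominator and also without miRNAs under a log2 mean abundance of -20, 0.433% with identical miRNAs counted once, 0.543% without miR-22, 0.409% by seed, as miR-301b had no mature sequence to match, and 0.438% with both arms. That of miR-148/miR-152, 2.18%, became 2.19% with the sum of the table and also without miRNAs under -20, 2.20% with identical miRNAs counted once, 2.75% without miR-22 and 2.27% with both arms. With both arms, the leading member held 76.1% of miR-130/miR-301 and 95.1% of miR-148/miR-152. With miR-301a and miR-301b added up, as paralogs that differ at 1 position, they held 82.0% of miR-130/miR-301. The number of member hairpins within the middle range of other pairs fell from 5 to 3 with -5p and -3p pairs, taken as the higher minus the lower arm. It fell to 2 with both arms at -20 or above. The upper end of that range was 8.27 and 6.97 in these 2 settings, in place of 9.31. With the minimum of -20 the hairpin of miR-301b gave no pair and miR-301b* no rank.

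No paired analysis was possible because each level is a mean over both groups, and leaving out a replicate was not possible for the same reason. The depth is unknown, so the precision of the lowest members, miR-301b*, miR-130a* and miR-301a*, cannot be given. In the table, 25 miRNAs lie at or under -35.64 and the next at -24.52, so the former cannot be read as shares; no member is among them. 30 miRNAs share their value with another one, and 0 of the members do.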
